A study of Mus musculus with 4 samples.

Results

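Condensin, cohesin and topoisomerase II shape chromosomes, and 10 of their genes were followed in mouse blastocyst outgrowths of the wild-type and Tip110-/- genotypes. The genes were Top2a and Top2b for topoisomerase II, Smc2, Smc4, Ncaph, Ncapd2 and Ncapg for condensin I, and Smc1a, Smc3 and Rad21 for cohesin. They were picked by name, as subunits and enzymes, with earlier results of these data known. Each had exactly 1 row on the array with its symbol alone, so all 10 entered the test beside the other genes of the 30142 measured. The study hybridized 4 Affymetrix whole-transcript arrays, 2 wild-type and 2 Tip110-/-. Blastocysts were flushed at 3.5 days post coitum from intercrosses of Tip110+/- mice, grown for 4 to 6 days in medium with knockout serum replacement and given no treatment. Replicate 1 of each genotype pooled the RNA of 3 outgrowths and replicate 2 came from 1 outgrowth. The labels give no strain, no use of feeder cells and no description of the mutant allele. An outgrowth holds several embryonic lineages, so in these bulk samples fewer cells of a type and less RNA per cell cannot be told apart.

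Condensin and cohesin are ring-shaped complexes built on long SMC proteins that hydrolyse ATP and enclose DNA. Condensin I acts once the nuclear envelope has broken down and coils mitotic chromatids, cohesin holds sister chromatids together from replication to anaphase and also folds interphase chromatin into loops, and topoisomerase II passes a DNA duplex through a break in another to untangle sister DNA. TOP2A is the form of dividing cells, whereas TOP2B is also made in cells that have stopped dividing. In a blastocyst outgrowth the inner cell mass keeps dividing, while many trophoblast cells become giant cells that copy their DNA without mitosis.

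The promoters of these genes are shown because genes active in mitosis often carry a cell cycle homology region and CCAAT boxes before the transcript start, and because the genes differed in signal as described further on. The sequences come from the RefSeq table of build GRCm38.p6, which gave windows for 8 of the 10 genes; Smc4 and Rad21 were not matched. Lines are printed for Top2a, Ncapg, Ncapd2, Smc2 and Top2b. The windows of Ncaph, Smc1a and Smc3 were searched in the same way and are not printed. Each line gives the 250 bases before the annotated start, read 5′ to 3′ on the strand of the gene. Capitals mark matches on either strand to TTTGAA, the core of the cell cycle homology region, to CCAAT, or to an E2F form (TTTGGCGC, TTTCCCGC, TTTGCCGC or TTTCGCGC).
Top2a (chr11:99024190-99024439, minus strand): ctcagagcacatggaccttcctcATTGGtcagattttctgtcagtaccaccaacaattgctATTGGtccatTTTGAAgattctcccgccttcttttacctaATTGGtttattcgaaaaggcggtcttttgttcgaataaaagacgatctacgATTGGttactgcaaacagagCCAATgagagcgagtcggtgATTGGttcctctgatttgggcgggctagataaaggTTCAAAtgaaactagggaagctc
Ncapg (chr5:45669675-45669924, plus strand): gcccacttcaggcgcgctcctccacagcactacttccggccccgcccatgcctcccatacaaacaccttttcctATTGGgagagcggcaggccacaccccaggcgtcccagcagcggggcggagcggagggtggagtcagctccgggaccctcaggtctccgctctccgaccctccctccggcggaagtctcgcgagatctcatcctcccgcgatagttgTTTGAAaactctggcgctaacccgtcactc
Ncapd2 (chr6:125191587-125191836, minus strand): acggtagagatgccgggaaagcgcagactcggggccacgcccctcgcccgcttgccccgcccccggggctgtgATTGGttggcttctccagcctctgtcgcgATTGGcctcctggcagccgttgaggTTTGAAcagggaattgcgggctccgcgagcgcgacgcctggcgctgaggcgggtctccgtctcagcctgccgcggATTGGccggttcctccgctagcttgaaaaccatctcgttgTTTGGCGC
Smc2 (chr4:52438971-52439220, plus strand): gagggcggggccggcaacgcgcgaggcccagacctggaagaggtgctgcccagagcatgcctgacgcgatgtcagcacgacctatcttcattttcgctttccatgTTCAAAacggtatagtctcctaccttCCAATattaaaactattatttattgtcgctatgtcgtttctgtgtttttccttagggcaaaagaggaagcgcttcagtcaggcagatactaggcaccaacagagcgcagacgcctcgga
Top2b (chr14:16364956-16365205, plus strand): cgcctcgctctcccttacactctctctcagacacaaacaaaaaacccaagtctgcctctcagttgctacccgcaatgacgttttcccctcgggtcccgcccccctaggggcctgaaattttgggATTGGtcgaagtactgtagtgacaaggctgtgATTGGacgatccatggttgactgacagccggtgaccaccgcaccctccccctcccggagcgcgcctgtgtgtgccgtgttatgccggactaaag

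In Top2a the capitals hold 6 CCAAT boxes and 2 cell cycle homology cores, the nearer core beginning 23 bases before the start. Ncapg has a core 30 bases before the start and 1 CCAAT box, and Ncapd2 has a core 123 bases before it, 3 CCAAT boxes and an E2F form ending at the start. Smc2 has a core 145 bases before the start and another beginning at base 27 of the transcript. In Top2b there are 2 CCAAT boxes and no core. Over the whole windows, which run from 250 bases before to 50 bases after the start, the core was found in 4 of the 8 members, namely Top2a, Smc2, Ncapd2 and Ncapg, and in 17.9% of all 32851 windows. The CCAAT box was found in 6 of 8 members and in 37.4% of windows, and any of the 4 E2F forms in Ncapd2, Ncapg and Smc1a and in 2.26% of windows. Ncaph and Smc3 held no match to any of these letters, and no matches overlapped each other. A match is a run of letters and not a measured binding site.

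**Figure D1:**
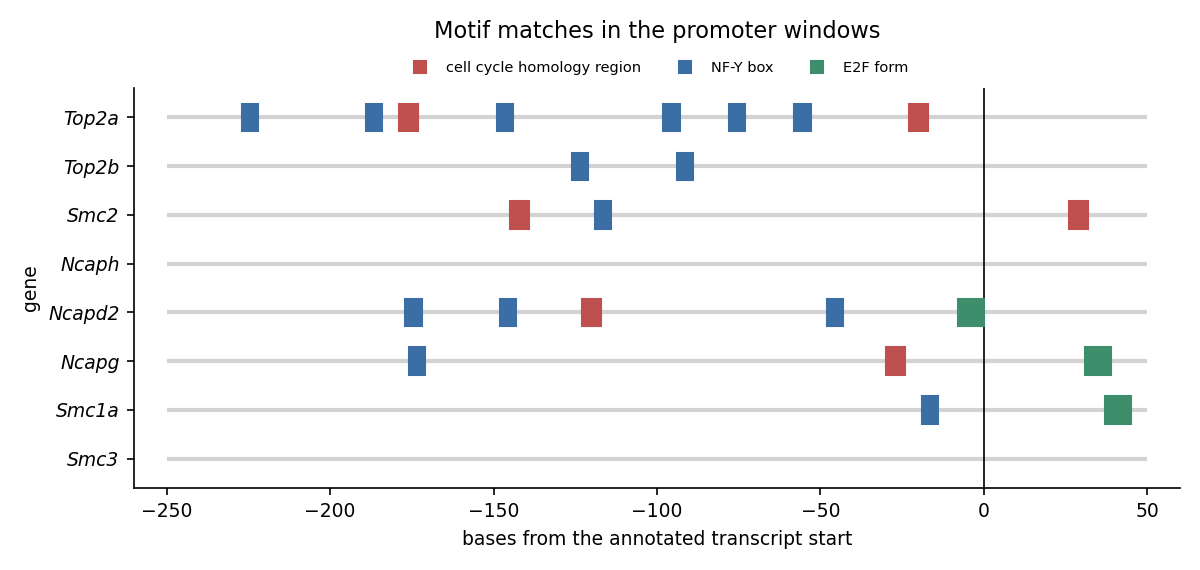
Matches in the promoter windows of 8 genes, by distance in bases from the annotated transcript start (0), with the CCAAT box drawn as NF-Y box. Top2a holds 6 of these boxes and 2 cell cycle homology cores, Top2b holds 2 boxes and no core, and Ncaph and Smc3 are empty.

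Sart3, the gene that encodes Tip110, was read first as a check of the labels. Its signal, on the deposited log2 scale used throughout and with the pool given before the single outgrowth, was 4.94 and 5.98 in wild-type against 4.28 and 4.54 in Tip110-/-, a difference of -1.05 ± 0.39 (SE). Both Tip110-/- arrays lay below both wild-type arrays, as in 12.9% of all genes. The unadjusted limma p was 0.044, and the difference did not pass over all genes (limma adjusted p = 0.386). It is not known whether its probes lie in the deleted part. The median signal over all genes was 4.21 to 4.45 in the 4 arrays and that of 23 antigenomic background rows was 2.82 to 3.05, both higher in both Tip110-/- arrays. The mean of the Tip110-/- arrays exceeded that of wild-type by 0.34 to 0.79 in the 4 spiked hybridization controls, and RNA per outgrowth was 248.7 and 178.0 pg in wild-type against 55.0 and 144.0 pg in Tip110-/-. These values move with genotype, and their part in the differences was not tested.

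The comparison asks which genes differ in signal between Tip110-/- and wild-type outgrowths. Signal of Top2a and the 5 condensin I genes was lower in Tip110-/- with no overlap between genotypes, at differences of -3.99 to -1.15 on the log2 scale, while Top2b and the 3 cohesin genes differed by -0.25 to 0.68. No gene passed the threshold of 0.05 after Benjamini-Hochberg adjustment over all genes in limma, neither among the 10 members nor elsewhere (0.0% of genes called, and 0.0% of the 19043 protein coding genes). At an unadjusted p under 0.05, 6 of the 10 members were lower and 0 higher, where 3.67% of all genes were lower and 8.99% higher, and 4.42% and 6.97% of protein coding genes. The count of 6 fell when any 1 of the 4 arrays was left out, and the members' median difference then ran from -1.52 to -1.10. The median difference was -1.31 over the members and 0.15 over all genes, so the members' median lay at -1.46 relative to all genes.

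**Figure D2:**
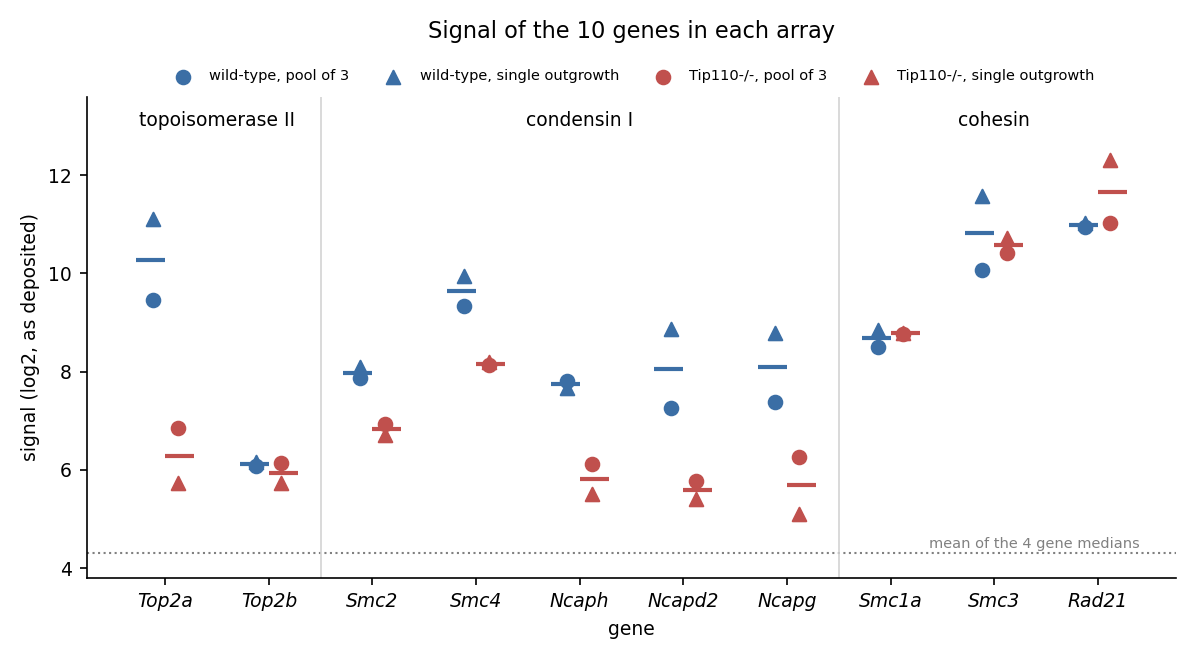
Signal of each gene (log2, as deposited) in the 4 arrays, with circles for pools of 3, triangles for single outgrowths and bars for the mean of 2 arrays. For Top2a and the 5 condensin genes both Tip110-/- points lie below both wild-type points, and for Smc1a, Smc3 and Top2b the genotypes overlap.

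Top2a, the topoisomerase that untangles and helps to compact chromosomes before anaphase, had the largest difference of the 10. Wild-type outgrowths read 9.46 (pool) and 11.11 (single), and Tip110-/- outgrowths 6.85 (pool) and 5.73 (single). Both Tip110-/- arrays were low and the groups did not overlap. The means were 10.28 ± 1.17 and 6.29 ± 0.80 (SD, n = 2), which is a 15.9-fold lower signal. The difference of -3.99 ± 0.78 (SE; 95% interval -5.99 to -1.99) exceeded either SD and did not pass over all genes (limma adjusted p = 0.318). It was the 76th lowest of the 30142 differences.

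Top2b, the other topoisomerase II gene, read 6.08 and 6.15 in wild-type against 6.13 and 5.74 in Tip110-/-. The pooled Tip110-/- array lay between the wild-type arrays, so the groups overlapped. The difference was -0.18 ± 0.32 (SE), with an interval from -0.99 to 0.64 (limma adjusted p = 0.780), and it was 0.02 without Tip110-/- replicate 2. Since both genes are read on the same arrays, the log2 difference of Top2a minus Top2b within each array takes out a shift of the whole array. This quantity came to 3.38 and 4.96 in wild-type against 0.72 and -0.02 in Tip110-/-. It was lower in both Tip110-/- arrays, by 3.82 between the means, with p = 0.333 in a two-sided exact permutation test over the 4 arrays, the smallest p that 2 against 2 allow. Levels of different rows are not comparable between genes on an array, so only the change of this quantity is read.

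The condensin I genes were lower together, 5 of 5 without overlap between genotypes, where 12.9% of all genes and 15.3% of protein coding genes lay lower in this way. All 5 were at an unadjusted p under 0.05, with limma adjusted p from 0.332 to 0.385. Their median difference was -1.93, or -2.08 relative to all genes. The non-SMC subunits Ncapd2, Ncapg and Ncaph differed more than the SMC subunits Smc2 and Smc4, an order that was not tested.

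Ncapd2 encodes a HEAT-repeat subunit that helps condensin I to bind chromosomes. Its signal was 7.25 and 8.86 in wild-type against 5.77 and 5.41 in Tip110-/-, a difference of -2.47 ± 0.63 (SE). The wild-type arrays lay 1.61 apart, and the difference still exceeded that gap. It was no longer at an unadjusted p under 0.05 without Tip110-/- replicate 2 (-2.28).

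Ncapg, the other HEAT-repeat subunit, was at 7.39 and 8.79 in wild-type against 6.27 and 5.11 in Tip110-/-, a difference of -2.40 ± 0.68 (SE). Here too the single wild-type outgrowth was the highest array and the single Tip110-/- outgrowth the lowest. The unadjusted mark was missed without wild-type replicate 2 (-1.70) and without Tip110-/- replicate 2 (-1.82).

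Ncaph encodes the kleisin, which closes the condensin ring between the SMC heads. It was at 7.80 and 7.67 in wild-type against 6.12 and 5.50 in Tip110-/-. Both groups were tight, with SDs of 0.09 and 0.44, and the difference was -1.93 ± 0.41 (SE), a 3.81-fold lower signal.

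Smc4 and Smc2 encode the ATPase arms shared by condensin I and condensin II. Smc4 was at 9.34 and 9.94 in wild-type against 8.14 and 8.19 in Tip110-/-, a difference of -1.47 ± 0.52 (SE). Smc2 was at 7.86 and 8.10 in wild-type against 6.94 and 6.71 in Tip110-/-, a difference of -1.15 ± 0.42 (SE). In both genes the arrays of a genotype lay closer to each other than to those of the other genotype. The unadjusted p of each no longer passed 0.05 when any 1 of the 4 arrays was left out, while the differences ran from -1.77 to -1.17 for Smc4 and from -1.32 to -0.99 for Smc2 over all 13 alternative settings.

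The cohesin genes showed no such pattern. Of 3 core subunits, 0 were lower and 0 higher at an unadjusted p under 0.05, and their median difference was 0.10, close to the 0.15 of all genes. Their intervals were wide and do not show that levels were equal.

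Smc1a and Smc3 encode the SMC arms of cohesin. Smc1a was at 8.50 and 8.85 in wild-type against 8.77 and 8.78 in Tip110-/-, with both Tip110-/- values between those of wild-type. Its difference of 0.10 ± 0.49 (SE; 95% interval -1.16 to 1.37) changed sign with columns centred on their median (-0.06) and without wild-type replicate 1 (-0.07). Smc3 was at 10.07 and 11.58 in wild-type against 10.41 and 10.73 in Tip110-/-. The wild-type arrays lay 1.50 apart, more than the difference of -0.25 ± 0.69 (SE; 95% interval -2.03 to 1.52), which was 0.50 without wild-type replicate 2.

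Rad21, the cohesin kleisin that separase cuts at anaphase, was at 10.95 and 11.02 in wild-type against 11.02 and 12.30 in Tip110-/-. The single Tip110-/- outgrowth was high and the pool was level with wild-type to within 0.08. Both Tip110-/- arrays lay above both wild-type arrays, as they did in 39.9% of all genes and 38.1% of protein coding genes. The difference of 0.68 ± 0.62 (SE; 95% interval -0.91 to 2.27) did not pass (limma adjusted p = 0.581), and without Tip110-/- replicate 2 it was 0.04.

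**Figure D3:**
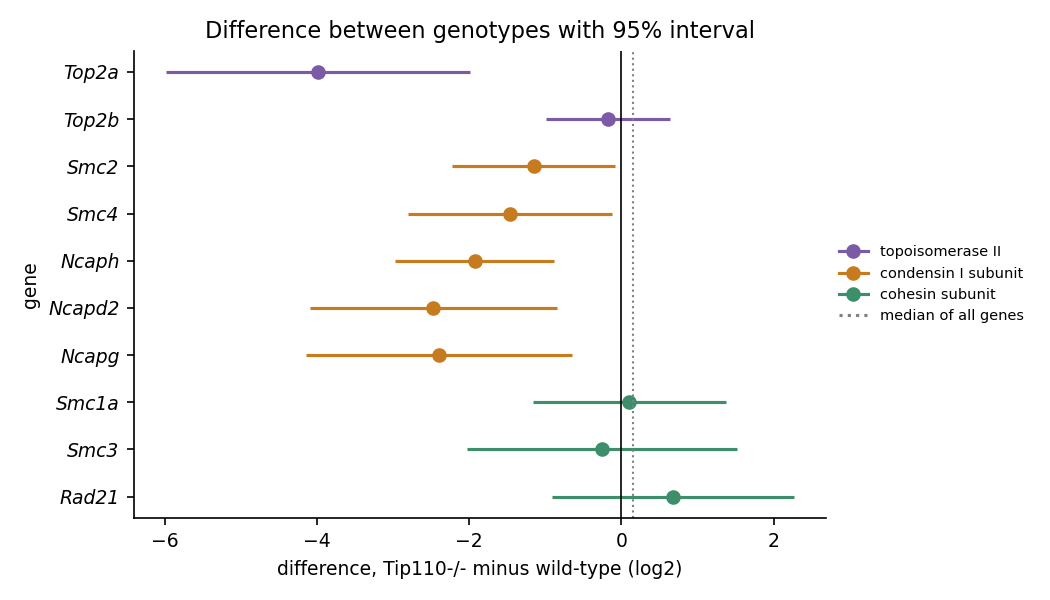
Difference between genotypes (log2, Tip110-/- minus wild-type) for each gene, with the moderated 95% interval as a line; the dotted line is the median of all genes at 0.15. The intervals of Top2a and the 5 condensin genes lie below 0, and those of Top2b, Smc1a, Smc3 and Rad21 include 0.

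Condensin and cohesin were also set against each other within each array, as the median signal of the 5 condensin genes minus that of the 3 cohesin genes. This quantity was -2.27 and -2.23 in wild-type against -4.14 and -5.23 in Tip110-/-, so it was lower in both Tip110-/- arrays, by 2.44 between the means. It is a description of these members and was not tested.

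Array by array, the genes lower in Tip110-/- differed more between the single outgrowths than between the pools. Between the pools Top2a differed by -2.61, and between the single outgrowths by -5.38. Over the 5 condensin genes the median difference was -1.20 between the pools and -2.17 between the single outgrowths, and over the 3 cohesin genes 0.28 and -0.07. For Top2a, Ncapd2 and Ncapg this gap came from both sides, since the single wild-type outgrowth was higher than the pool, by 1.65, 1.61 and 1.40, and the single Tip110-/- outgrowth differed from its pool by -1.13, -0.36 and -1.17. With 1 array of each kind per genotype the gap was not tested.

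**Figure D4:**
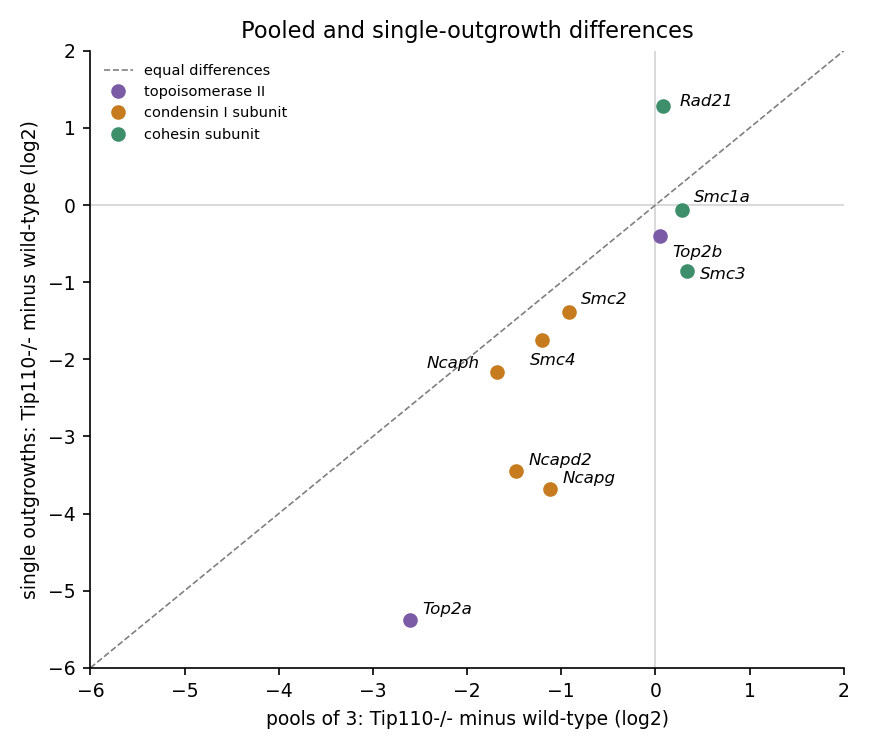
Difference between genotypes (log2, Tip110-/- minus wild-type) in the pools of 3 outgrowths (x axis) and in the single outgrowths (y axis), 1 point per gene, with the dashed line for equal differences. Top2a and the 5 condensin genes are negative on both axes, and Top2a, Ncapd2 and Ncapg lie farthest below the line.

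Related genes were read from fixed lists. Beside the counts in these lists, 3.67% of all genes were lower and 8.99% higher at an unadjusted p under 0.05 in limma. Condensin II, which shares Smc2 and Smc4 but is nuclear throughout the cell cycle, has 3 subunits of its own. All 3 were below wild-type in both Tip110-/- arrays, as were 12.9% of all genes and 15.3% of protein coding genes. Of these subunits, 0 of 3 were at an unadjusted p under 0.05 (median difference -0.47). With columns centred on their median Ncaph2 and Ncapd3 were lower at that mark, and with no intensity trend Ncaph2 was. The kleisin Ncaph2 was at 6.86 and 6.79 in wild-type against 6.20 and 5.68 in Tip110-/-, a difference of -0.89 ± 0.36 (SE). Ncapg2 and Ncapd3 differed by -0.47 and -0.43, from wild-type levels of 4.56 to 5.14 where the median of all genes lay at 4.21 to 4.45. The list's median was -0.24 without wild-type replicate 1 and -0.76 without wild-type replicate 2.

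Of 6 STAG and meiotic cohesin subunits, 0 were lower or higher at an unadjusted p under 0.05. Stag2, a subunit that binds the cohesin ring, was at 7.79 and 7.56 in wild-type against 8.57 and 10.25 in Tip110-/-, a difference of 1.73 ± 0.71 (SE). It was 0.77 between the pools and 2.68 between the single outgrowths, and it was higher at an unadjusted p under 0.05 with quantile normalization, with cyclic loess and without Tip110-/- replicate 1. Smc1b, a meiotic subunit, was lower by that mark without wild-type replicate 1. The meiotic genes Rec8 and Rad21l were below the gene median in every array.

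Among 14 genes that load, release, protect or cut cohesin, 2 were lower and 1 higher by the unadjusted mark, and the other 11 missed it. The list's median difference was -0.63, and only Esco1 and Wapl had positive differences. Sgo1 had the largest difference of the list (-1.97) but overlapped between genotypes. Pttg1, Ctcf, Sgo2a and Pds5b differed by -0.87, -0.84, -0.82 and -0.68 without passing. Espl1, which encodes separase, the protease that opens cohesin at anaphase, was at 6.86 and 7.34 in wild-type against 5.56 and 5.45 in Tip110-/- (-1.60 ± 0.35, SE). Cdca5, which encodes sororin, the protein that keeps replicated cohesin on DNA, was at 7.52 and 7.19 against 6.26 and 5.24 (-1.60 ± 0.48, SE). Both genes serve the cohesin of dividing cells, and both were lower without overlap between genotypes, as were 12.9% of all genes. Esco1, an acetyltransferase of Smc3 that acts through interphase, lay the other way, at 6.67 and 6.73 against 8.04 and 8.25 (1.44 ± 0.41, SE), whereas Esco2, the form of S phase, differed by -0.24 and overlapped. The loader Nipbl differed by -0.15 and the release factor Wapl by 0.61, neither past the unadjusted threshold. With single arrays left out 1 to 3 of the 14 were lower; Espl1 kept the mark each time, Cdca5 lost it without wild-type replicate 1 or Tip110-/- replicate 2, and Esco1 lost it unless Tip110-/- replicate 1 was the array left out.

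In the SMC5/6 complex, a relative of cohesin in DNA repair, 1 of 6 genes was lower, namely Smc6, at 8.97 and 9.61 in wild-type against 8.03 and 7.82 in Tip110-/- (-1.37 ± 0.52, SE), a mark it missed when any array was left out and with quantile normalization, cyclic loess, array weights or the replicate block. Its partner Smc5 differed by 0.75 the other way without passing. Of 6 other topoisomerases and repair enzymes, 0 passed in either direction, and Top1, which nicks a single DNA strand, differed by 0.53 ± 0.54 (SE). Tdp1, which clears trapped Top1 from DNA, had the smallest p of that list and differed by -0.68 ± 0.48 (SE), passing 0.05 unadjusted without Tip110-/- replicate 1.

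Genes of the mitotic chromosome surface were lower in 3 of 6. Mcph1, a regulator of condensin II and of the timing of chromosome condensation, was at 8.19 and 7.47 in wild-type against 4.78 and 5.15 in Tip110-/- (-2.87 ± 0.41, SE). Mki67, which coats mitotic chromosomes, was at 11.11 and 12.42 against 8.96 and 4.97 (-4.80 ± 1.42, SE), and the chromokinesin Kif4, a partner of condensin I, at 6.20 and 7.37 against 5.39 and 4.46 (-1.87 ± 0.55, SE). In all 3 both Tip110-/- arrays lay below both wild-type arrays, as in 12.9% of all genes. The count was 1 without wild-type replicate 2 (Mcph1), 2 without Tip110-/- replicate 2 (Mki67 and Mcph1) and 4 without Tip110-/- replicate 1, which added Kif22. The list's median was -0.98 without wild-type replicate 2 and -0.99 without Tip110-/- replicate 2.

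Of 10 measured cyclins, kinases and cell cycle factors, 7 were lower and 0 higher at an unadjusted p under 0.05 (median difference -1.91); Ccnb1 and Foxm1 had no row of their own. Plk1, a kinase that acts on condensin and cohesin in mitosis, differed by -4.06 ± 0.96 (SE), Aurkb by -2.78 ± 0.45, the checkpoint kinase Bub1 by -2.32 ± 0.56, and Mybl2, a factor that activates mitotic genes through the cell cycle homology region, by -4.06 ± 1.09. The count was 4 without wild-type replicate 1, wild-type replicate 2 or Tip110-/- replicate 2, and Plk1, Aurkb and Bub1 were in it each time. Lin54 was the only gene of the 10 with a positive difference (0.39), and its groups overlapped. None of the genes in these lists passed over all genes (smallest limma adjusted p = 0.287, for Mcph1).

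**Figure D5:**
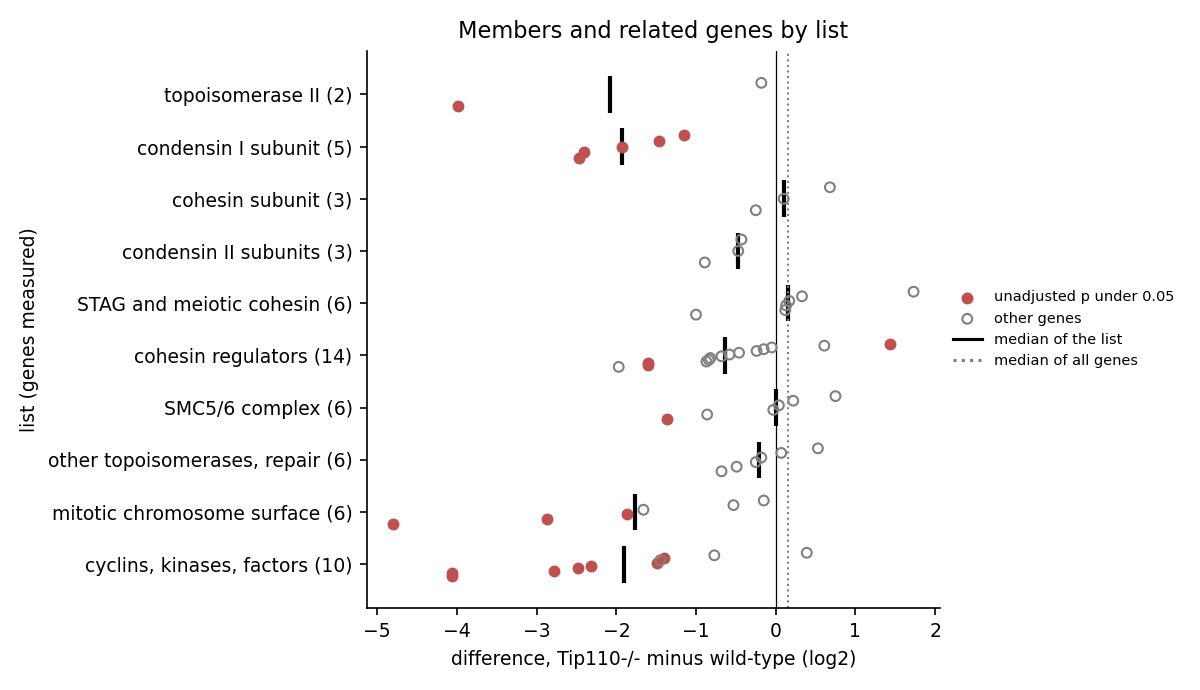
Difference between genotypes (log2, Tip110-/- minus wild-type) for the members and for each list of related genes, with filled points at an unadjusted p under 0.05, a black bar for the list median and a dotted line for the median of all genes. Medians are -1.93 for condensin I, -1.76 for the mitotic chromosome surface and -1.91 for cyclins and kinases, and 0.10 for cohesin.

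Markers of the lineages in an outgrowth were read beside these results. By the unadjusted mark, 3.67% of all genes were lower and 8.99% higher. Of 12 epiblast markers, 9 were lower and 0 higher by the unadjusted mark (8 or 9 lower with each array left out), and their median signal was 9.52 and 9.28 in wild-type against 7.66 and 5.60 in Tip110-/-. Their summed signal on the linear scale came to 424651 and 479702 in wild-type against 139541 and 43309 in Tip110-/-. Dppa5a alone made up 88.8% to 98.0% of that sum, and the other 11 markers summed to 23746 and 53641 against 2789 and 1423. The sum was lowest in the single Tip110-/- outgrowth. So was the signal of Top2a, Smc2, Ncaph, Ncapd2 and Ncapg, and also that of Top2b (5.74), whose genotypes overlapped. Smc4 was lowest in the pooled Tip110-/- array (8.14 against 8.19), and the cohesin genes Smc1a, Smc3 and Rad21 in the pooled wild-type array. Of 6 measured genes of the giant cell list 2 were higher by the unadjusted mark, Mmp9 (1.41) and Prl5a1 (5.64). Prl5a1 is a spongiotrophoblast prolactin gene, so its difference is not read as a giant cell signal. The list's median difference was 0.75, and it was 0.53 without wild-type replicate 2 and 1.17 without Tip110-/- replicate 1. The list's summed signals of 182155 and 109485 against 200198 and 526597 were 97.9% to 99.0% Prl2c2 and Prl5a1. Without this pair the sums were 2911 and 2354 against 3264 and 5469. Prl3d1 and Prl3b1 of this list, Gata3 of the trophoblast progenitor list and Pdgfra of the primitive endoderm list had no row of their own. Of 8 trophoblast progenitor markers 0 passed, while 2 were higher with either Tip110-/- array left out and Krt8 was higher under quantile normalization and cyclic loess. Their sums of 228087 and 157463 against 226056 and 374917 were 97.3% to 98.4% the keratins Krt8 and Krt18. Of 8 primitive endoderm markers 0 passed (0 or 1 higher with an array left out). Their sums were 1271 and 142 against 303 and 629 with Lamb1, which made up 15.2% to 83.7% of them, and 207 and 120 against 182 and 179 without it. Sox17 and Sox7 were below the gene median in all arrays. All 6 fibroblast markers were below it in all arrays, at sums of 80 and 89 against 99 and 89. The share of each lineage was not measured, and its part in the condensin and Top2a differences was not tested.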

How the data were processed

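RNA of 4 outgrowth samples was measured on Affymetrix whole-transcript arrays. The authors deposited log2 signal values for 72688 rows; the log base was inferred from their range. The tools listed in the submitters' processing notes are Transcriptome Analysis Console and Affymetrix Expression Console. Normalization algorithm and build: not given in the sources used here. Per the labels, 144 pg of RNA was labelled per array, while the design text gives 100 pg.

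Rows were named through the platform annotation; 30604 had 1 distinct symbol, updated by Entrez ID through the GRCm38.p6 gene table. For 355 genes with several rows the row with the highest mean was kept, leaving 30142 genes. Each was fitted on genotype by lmFit, then eBayes with trend (R 4.3.3, limma 3.58.1), two-sided, with Benjamini-Hochberg adjustment over all genes and no filter on level. The fit was run on data simulated from its own variance prior. That check does not show how the test performs on these pools and single outgrowths. Tables and plots were made with Python 3.11.15, pandas 2.3.3 and matplotlib 3.10.9. Promoter motifs were searched as exact letters on both strands.

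The members and gene lists were chosen with earlier results of these data known. Named were all 10 members, Sart3, and from each related list up to 4 genes with the smallest p under 0.05, or the 1 with the smallest p where none passed. Esco2, Nipbl, Wapl, Smc5, Top1, Ncapg2, Ncapd3, Smc1b, Rec8, Rad21l, Kif22, Lin54 and the lineage markers were named after their values were seen. So were Sgo1, Pttg1, Ctcf, Sgo2a and Pds5b. Alternatives were other normalizations, variance priors, a filter, array weights, a replicate block and each array left out. With 2 arrays per genotype, SDs come from 2 values each. Arrays of a genotype are biological replicates per the labels; a shared litter is neither stated nor denied.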

Additional observations from a re-analysis of the deposited data

How the results depend on the processing

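The number of arrays, 2 per genotype, limits precision, and the count of members past the adjusted threshold was 0 under each of the 13 alternatives run. Top2a and the 5 condensin genes kept a negative difference under all 13, Top2a between -4.82 and -3.17 and Ncaph between -2.24 and -1.62. Top2a and Ncaph were at an unadjusted p under 0.05 in 13 of 13 alternatives, Ncapd2 in 12, Ncapg in 11, Smc4 in 8 and Smc2 in 7. The count of members lower at that mark, 6 of 10 with all arrays, fell when any 1 array was left out. In those fits the lone array of a genotype is assumed to vary like the other genotype. Across the leave-outs the members lower in Tip110-/- without overlap numbered 6 to 9. A lone array in a genotype makes a lack of overlap easier to reach, and no share over all genes is given for it. Without wild-type replicate 1 the count took in Smc1a at -0.07 and Top2b at -0.21. The median difference over the members was -1.52 to -1.10 across the leave-outs. Top2a minus Top2b changed by -4.61 to -3.03, and condensin minus cohesin by -2.98 to -1.89. Among the members, signs turned for Smc1a (-0.06 with centred columns, -0.07 to 0.28 across the leave-outs), Smc3 (-1.0 to 0.50) and Top2b (-0.37 to 0.02); the cause was not tested.

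With the replicate number as a block, 4 members had an unadjusted p under 0.05 (Top2a, Ncaph, Ncapd2 and Ncapg) and 0 at the adjusted threshold. The number separates pools from single outgrowths, and the deviations of same-numbered arrays correlated at -0.0903 across all genes and at -0.395 across the 10 members. The labels name nothing else that same-numbered arrays share. The median over all genes moved from 0.15 to 0.01 with quantile normalization, -0.02 with centred columns and 0.00 with cyclic loess.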
